A study of Mus musculus with 10 samples.

Results

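The genes described here are 34 genes of glucose breakdown and of the response to low oxygen, taken by symbol from the probe annotation of an Affymetrix mouse array. Of these, 30 had at least 1 probe set that carried a single gene symbol, among 12393 such genes on the array, and 29 passed a filter on dim values and were tested. They comprised glucose and lactate transporters, the enzymes from hexokinase to lactate dehydrogenase, regulators of pyruvate use, and the hypoxia factor Hif1a with genes known as its targets. RNA came from primary mouse embryonic fibroblasts (MEFs), connective tissue cells grown from E13.5 embryos on a mixed C57BL/6 and 129 background. The groups were 3 arrays of wild type cells, 3 arrays of Snf5-/- cells and 4 arrays of Brg1-/- cells. The labels give all 3 groups the same treatment, which is Cre recombinase carried by a retrovirus followed by selection in puromycin at 2.5 ug/ml. They name neither the promoter that drove Cre nor the targeted alleles, and they do not say how many embryos or cultures the replicates stand for. The p-values therefore cover only the variation among these 10 arrays, which may be technical.

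Glycolysis splits glucose into pyruvate in the cytoplasm, and lactate dehydrogenase can turn pyruvate into lactate, which leaves the cell through a transporter. Under low oxygen the factor HIF-1, made of Hif1a and Arnt, is stabilised and binds short DNA elements near many of these genes, raising glucose uptake, glycolysis and blood vessel growth signals. Snf5 (gene Smarcb1) and Brg1 (gene Smarca4) are subunits of SWI/SNF, a complex that moves nucleosomes and so changes access to DNA.

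Values were MAS5 intensities, which summarise the brightness of the probes in a probe set on a linear scale. The wild type arrays were brighter as a whole, with a mean array median of 208 ± 22.7 (SD, n = 3) against 174 ± 14.2 (n = 3) in Snf5-/- and 157 ± 12.1 (n = 4) in Brg1-/-. Intensities below are therefore quantile-normalized, which gives all arrays the same distribution, and calls that differ on the deposited scale are named with the counts below. The median change over all 8402 tested genes was 0.02 on the log2 scale in both mutants after this step, and without it -0.27 for Snf5-/- and -0.47 for Brg1-/-. A gene rose or fell where its adjusted p in limma (Benjamini-Hochberg over all tested genes) was under 0.05. Smarcb1 fell in Snf5-/- (log2 change -1.37, adjusted p = 1.96e-05) and Smarca4 fell in Brg1-/- (-2.10, adjusted p = 2.23e-06), and all 12 fibroblast markers examined were above the background of bacterial control probe sets in every array. In bulk RNA, fewer cells of a type and less RNA per cell cannot be told apart.

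The start sites of 4 members are shown to give the sequence context of the genes described below. Pgam1, Pfkp and Slc2a1 are members whose RNA fell in at least 1 mutant, and Ldha is a classical HIF-1 target whose RNA did not pass the test after quantile normalization. Each RefSeq window runs 5′ to 3′ from 250 bases before to 50 bases after a transcript start, on build GRCm38.p6. Capitals mark ACGTG and GCGTG on either strand, the cores of the hypoxia response element. The windows are chr19:41911621-41911920, plus strand for Pgam1, chr13:6648722-6649021, minus strand for Pfkp, chr4:119108495-119108794, plus strand for Slc2a1, and chr7:46845554-46845853, plus strand for the first of the Ldha windows.
Pgam1: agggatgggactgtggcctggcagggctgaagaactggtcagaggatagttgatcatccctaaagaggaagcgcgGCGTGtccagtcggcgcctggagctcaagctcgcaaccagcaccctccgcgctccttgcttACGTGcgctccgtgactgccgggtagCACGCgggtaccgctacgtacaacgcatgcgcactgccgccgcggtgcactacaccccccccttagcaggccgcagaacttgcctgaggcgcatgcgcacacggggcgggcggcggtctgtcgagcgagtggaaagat
Pfkp: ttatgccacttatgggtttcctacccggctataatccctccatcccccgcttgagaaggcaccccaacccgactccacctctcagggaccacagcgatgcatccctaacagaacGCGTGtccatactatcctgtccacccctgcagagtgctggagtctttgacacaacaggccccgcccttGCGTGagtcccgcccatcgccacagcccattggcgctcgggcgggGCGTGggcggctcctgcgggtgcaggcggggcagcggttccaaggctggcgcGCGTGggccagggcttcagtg
Slc2a1: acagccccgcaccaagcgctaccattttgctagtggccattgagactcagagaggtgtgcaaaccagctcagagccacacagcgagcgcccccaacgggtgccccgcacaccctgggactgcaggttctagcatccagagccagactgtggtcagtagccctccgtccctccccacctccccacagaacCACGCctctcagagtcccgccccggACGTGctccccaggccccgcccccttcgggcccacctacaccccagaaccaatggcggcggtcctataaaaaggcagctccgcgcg
Ldha: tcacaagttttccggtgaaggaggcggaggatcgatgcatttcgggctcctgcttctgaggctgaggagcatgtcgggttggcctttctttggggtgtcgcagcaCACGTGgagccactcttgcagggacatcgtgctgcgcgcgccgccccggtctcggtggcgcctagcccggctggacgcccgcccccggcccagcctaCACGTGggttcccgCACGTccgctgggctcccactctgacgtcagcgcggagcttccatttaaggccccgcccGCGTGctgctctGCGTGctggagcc
The Ldha window held 5 matches to ACGTG and 2 to GCGTG, the Pfkp window 4 to GCGTG, the Pgam1 window 1 and 2, and the Slc2a1 window 1 of each. A match to ACGTG can also lie in the E-box CACGTG, where both strands count, as it does at 2 places in the Ldha window. RefSeq windows were found for 32 of the 34 members, 48 windows in all. ACGTG was in 27 of these 48 windows (56.2%), against 19.6% of all 32851 windows of the same length. GCGTG was in 26 windows (54.2%), against 32.4%. Either core was in 39 windows (81.2%), against 43.8% of all windows. The list was made to include known HIF-1 targets, and some windows of the same gene overlap and share a match. The difference in shares was not tested. At least 1 window of 30 of the 32 members held either core, among them genes that rose, fell or did not pass the test. Some members had more than 1 window, so this count by member cannot be set against the share of all windows.

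In Snf5-/- cells 7 of the 29 tested members passed the threshold, 4 higher and 3 lower. Over all tested genes 10.6% passed as higher and 7.47% as lower, against 13.8% and 10.3% of the members. Slc2a3, Ldhb, P4ha1 and Ddit4 rose, and Hk1, Aldoa and Pgam1 fell. The median change of the 29 members was -0.08, beside 0.02 for all tested genes. On the deposited scale 1 member was higher (background 3.15%) and 10 were lower (background 16.1%), and Slc2a3, Hk1, Aldoa and Pgam1 passed on both scales. Slc16a3, Hk2, Pfkp, Tpi1, Pgk1, Ldha and Bnip3 passed as lower on the deposited scale only, where the median of all tested genes was itself below 0. With each array centred on its median instead, 2 members were higher and 3 lower, beside 682 and 636 of all 8402 tested genes. With wild type replicate 2 or 3 left out, 4 or 3 members passed. Of all tested genes 979 or 920 then passed, against 1520 with every array.

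In Brg1-/- cells 12 of the 29 tested members passed, 3 higher and 9 lower. The members passed as lower at 31%, against 12.8% of all tested genes, and as higher at 10.3%, against 14.9%. Slc2a3, Ldhb and Ddit4 rose, and Slc2a1, Slc16a3, Hk1, Hk2, Pfkl, Pfkp, Pfkfb3, Aldoa and Pgam1 fell. The median change of the members was -0.22, beside 0.02 for all tested genes. On the deposited scale 1 member was higher (background 3.43%) and 20 were lower (background 44.1%), and all 9 that fell did so on both scales, as Slc2a3 rose on both. Tpi1, Pgk1, Pkm, Ldha, Pdha1, Pdk1, Hif1a, Bnip3, Ndrg1, P4ha2 and Mxi1 passed as lower on that scale only. With each array centred on its median, 2 were higher and 11 lower. With wild type replicate 2 or 3 left out, 6 or 7 members passed. The count over all tested genes was also lowest without wild type replicate 3, at 1649, and reached 2515 without another array. Both mutants were set against the same 3 wild type arrays, so their lists are not independent.

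**Figure D1:**
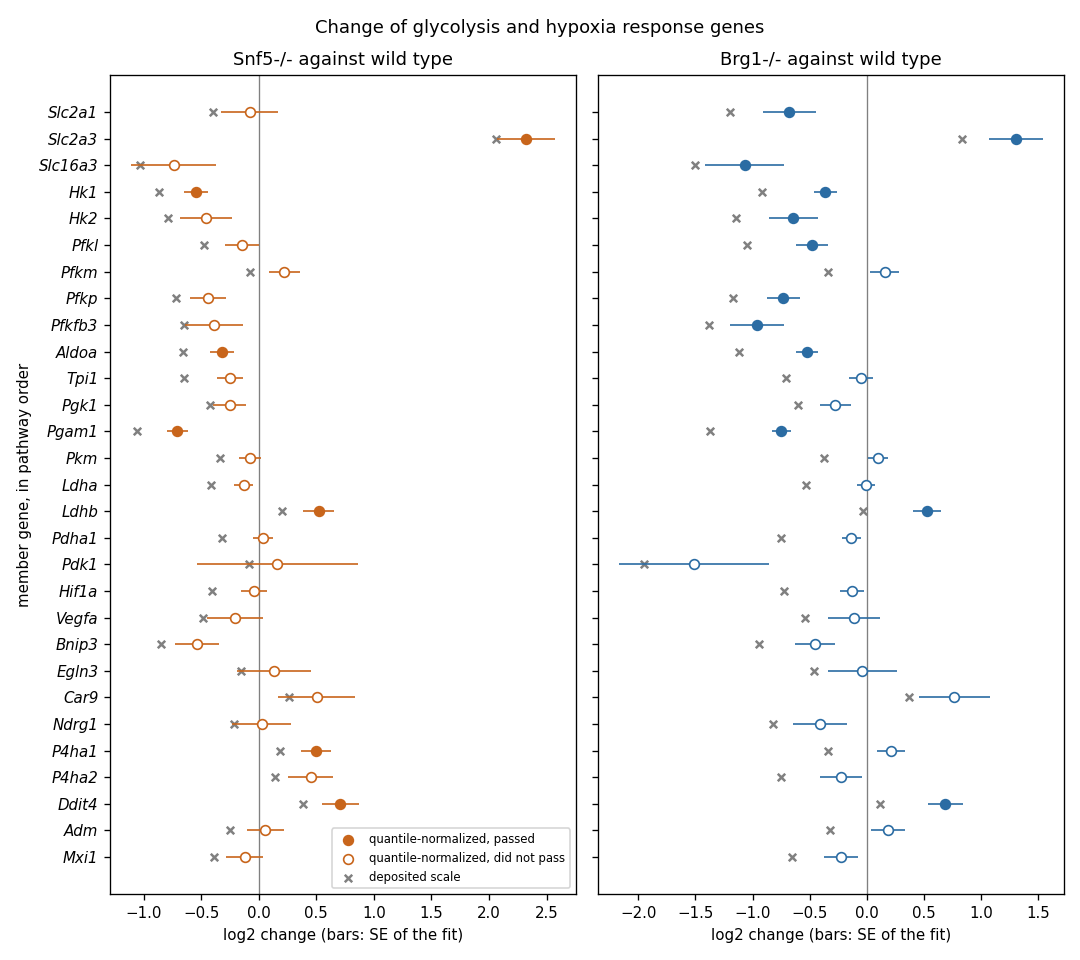
Log2 change of the 29 tested members against wild type in Snf5-/- (left) and Brg1-/- (right). Circles are quantile-normalized changes with the SE of the fit, filled where the gene passed the threshold, and crosses are changes on the deposited scale. In Brg1-/-, 9 filled circles lie below 0 and 3 above it, and in Snf5-/-, 3 below and 4 above.

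Among the transporters, Slc2a3 (GLUT3, a high-affinity glucose transporter) showed the largest rise of any member. Its intensity was 390, 299.5 and 336 in wild type against 2153, 1216 and 1861 in Snf5-/- and 1306, 664, 761 and 747 in Brg1-/-. Every mutant array lay above every wild type array, and Brg1-/- replicate 1 lay within the Snf5-/- values. On the deposited scale Brg1-/- replicate 2 (549) lay just below wild type replicate 1 (558). The log2 change was 2.32 ± 0.25 (SE, 4.99-fold, adjusted p = 9.62e-05) in Snf5-/- and 1.30 ± 0.24 (2.47-fold, adjusted p = 0.00183) in Brg1-/-. Both changes passed with any single array left out and under every other setting tried. Of the 4 probe sets of Slc2a3, 2 passed the filter, and the dimmer of these gave 2.10 and 1.13. A probe set that failed the filter overlapped wild type, with 56.0, 49.3 and 30.4 there. It had 62.1, 49.7 and 65.2 in Snf5-/- and 72.2, 100.4, 43.3 and 67.3 in Brg1-/-. Another that failed lay above wild type in every mutant array, with all wild type arrays at background.

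Slc2a1 encodes GLUT1, the glucose transporter of most cultured cells. Its intensity was 1223, 1136 and 1025 in wild type against 1269, 1488 and 639.7 in Snf5-/- and 773, 773, 710.4 and 574.5 in Brg1-/-. The Brg1-/- arrays all lay below wild type, while the Snf5-/- arrays lay on both sides of it, with replicate 2 highest and replicate 3 lowest. The change was -0.68 ± 0.23 in Brg1-/- (1.60-fold lower, adjusted p = 0.0472) and -0.08 ± 0.25 in Snf5-/- (adjusted p = 0.861). The Brg1-/- call was lost when any single wild type or Brg1-/- array, or Snf5-/- replicate 1, was left out, with adjusted p ranging from 0.00233 to 0.141 over the 10 fits. It was also lost without the filter on dim probe sets, without the intensity trend and with each probe set tested by itself (adjusted p = 0.0527). The dimmest Slc2a1 probe set did pass by itself in Brg1-/- (-0.60, adjusted p = 0.0366), and the remaining probe set gave -0.42 (adjusted p = 0.112).

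Slc16a3, the lactate exporter MCT4, fell in Brg1-/-. Its intensity was 416.3, 707.9 and 511.7 in wild type against 283.7, 572.9 and 199.2 in Snf5-/- and 174.8, 359.4, 322 and 204.9 in Brg1-/-. All Brg1-/- arrays were below wild type, and in Snf5-/- replicate 2 lay inside the wild type values while the other arrays lay below them. The change was -1.07 ± 0.35 in Brg1-/- (2.10-fold lower, adjusted p = 0.0364) and -0.74 ± 0.37 in Snf5-/- (adjusted p = 0.191, and 0.0247 on the deposited scale). The Brg1-/- call was lost without wild type replicate 2 or 3 or Brg1-/- replicate 1 or 4, with adjusted p up to 0.143, and also without the filter or the trend.

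**Figure D2:**
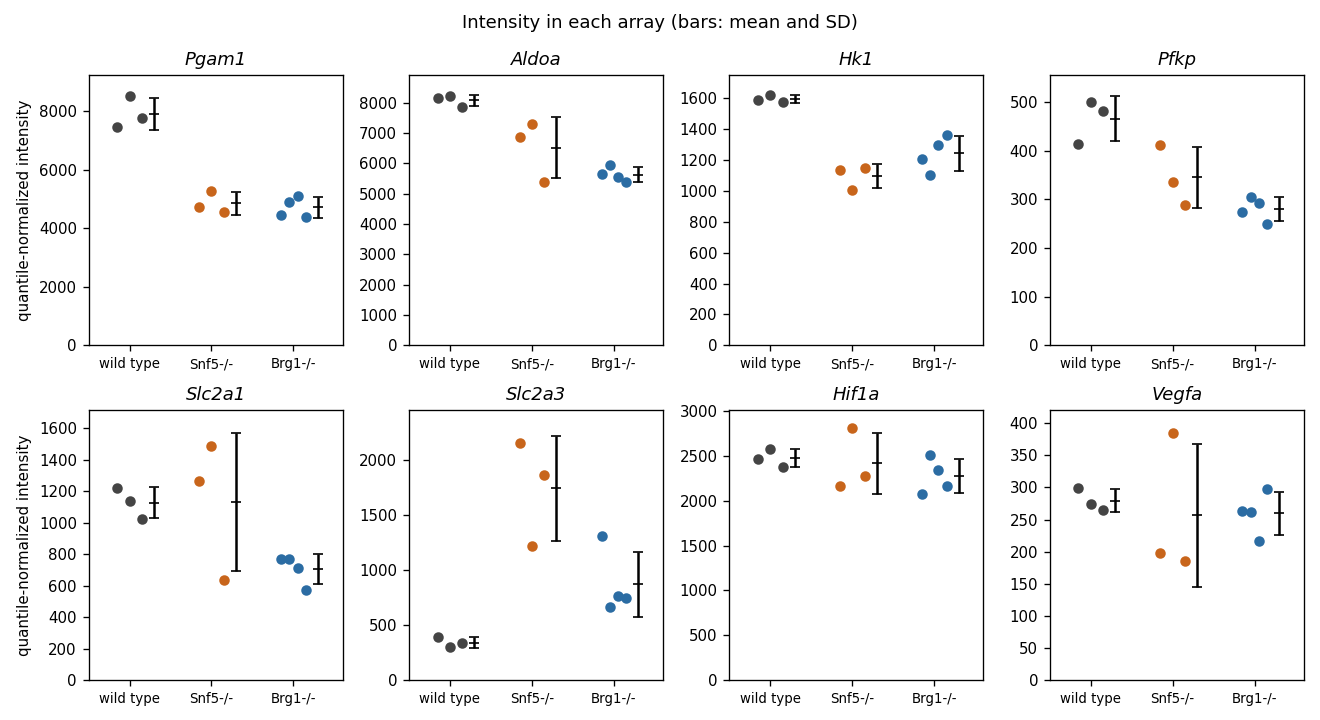
Quantile-normalized intensity of 8 members in each array, by group, with the mean and SD of each group drawn beside the points; all axes start at 0. Pgam1, Aldoa and Hk1 in both mutants lay wholly below wild type and Slc2a3 wholly above it, and the Snf5-/- arrays of Slc2a1 and Vegfa lay on both sides of wild type.

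RNA fell in Brg1-/- for 5 of the 6 tested genes from hexokinase to phosphofructokinase, a group that includes the regulator Pfkfb3. Over all tested genes 12.8% passed as lower there. The median change of the 6 genes was -0.56 in Brg1-/- and -0.41 in Snf5-/-, beside 0.02 for all tested genes in each. Hk1, the hexokinase found in most tissues, had 1585, 1621 and 1577 in wild type against 1136, 1005 and 1149 in Snf5-/- and 1209, 1104, 1298 and 1364 in Brg1-/-. All mutant arrays lay below wild type, whose arrays differed little. Hk1 fell by 0.54 ± 0.10 on the log2 scale in Snf5-/- (1.46-fold, adjusted p = 0.00426) and by 0.36 ± 0.10 in Brg1-/- (1.29-fold, adjusted p = 0.0162). Leaving out wild type replicate 2 or 3 (adjusted p up to 0.0616), or taking the mean of both probe sets, ended the Brg1-/- call, and a dimmer Hk1 probe set gave -0.16 there (adjusted p = 0.463) and -0.54 in Snf5-/- (adjusted p = 0.0313).

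Hk2, the inducible hexokinase of muscle and proliferating cells, had 887.8, 944 and 945 in wild type. The Snf5-/- arrays had 666, 1012 and 453, and the Brg1-/- arrays 694, 597, 523 and 571. As for Slc2a1, all Brg1-/- arrays were below wild type, and Snf5-/- replicate 2 was above it and replicate 3 far below. The change was -0.64 ± 0.21 in Brg1-/- (1.56-fold lower, adjusted p = 0.039) and -0.46 ± 0.23 in Snf5-/- (adjusted p = 0.184, and 0.0171 on the deposited scale). The Brg1-/- call was lost without any 1 wild type array or without Brg1-/- replicate 2, 3 or 4 (adjusted p up to 0.105), and without the filter or the trend.

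Phosphofructokinase, which commits sugar to glycolysis, has liver (Pfkl), muscle (Pfkm) and platelet (Pfkp) forms. Pfkp had 413, 500.2 and 482 in wild type against 411, 336 and 288 in Snf5-/- and 274, 305, 293 and 249.5 in Brg1-/-. All mutant arrays lay below wild type, Snf5-/- replicate 1 by a small margin. The change was -0.73 ± 0.15 in Brg1-/- (1.66-fold lower, adjusted p = 0.00323), which passed in every setting tried, and -0.44 ± 0.16 in Snf5-/- (adjusted p = 0.0691, and 0.0118 on the deposited scale). Another Pfkp probe set passed in Snf5-/- (-0.94, adjusted p = 0.0137) and missed the threshold in Brg1-/- (-0.61, adjusted p = 0.0516).

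Pfkl had 1802, 1967 and 1802 in wild type against 1574, 2223 and 1354 in Snf5-/- and 1304, 1404, 1260 and 1370 in Brg1-/-. Only the Brg1-/- arrays all lay below wild type, with a change of -0.48 ± 0.14 (1.39-fold lower, adjusted p = 0.0244). This call was lost without any 1 wild type array or Brg1-/- replicate 3 (adjusted p up to 0.0909) and with the mean of both probe sets. The muscle form Pfkm did not pass, with 0.22 ± 0.14 in Snf5-/- and 0.16 ± 0.13 in Brg1-/- (adjusted p = 0.285 and 0.399).

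Pfkfb3 makes fructose 2,6-bisphosphate, the strongest activator of phosphofructokinase. Its intensity was 244.9, 250.6 and 167 in wild type against 167.9, 181.9 and 150.6 in Snf5-/- and 83.6, 147, 102 and 124 in Brg1-/-. The Brg1-/- arrays were the lowest, below both other groups, and wild type replicate 3 lay among the Snf5-/- values. Pfkfb3 fell by 0.96 ± 0.24 on the log2 scale in Brg1-/- (1.95-fold, adjusted p = 0.0093). It missed the threshold only without wild type replicate 2 (adjusted p = 0.0505), and in Snf5-/- its change was -0.39 ± 0.25 (adjusted p = 0.32). A dimmer Pfkfb3 probe set failed the filter and was not tested. Its groups overlapped, with 60.8, 54.0 and 147.4 in wild type against 64.2, 61.0, 91.9 and 62.3 in Brg1-/-.

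Among the enzymes from aldolase to pyruvate kinase, Pgam1 had the largest change. Phosphoglycerate mutase 1 moves the phosphate group of 3-phosphoglycerate. Its intensity was 7460, 8522 and 7769 in wild type against 4736, 5283 and 4547 in Snf5-/- and 4454, 4919, 5102 and 4397 in Brg1-/-. Every mutant array lay far below every wild type array, and the mutants overlapped. Pgam1 fell by 0.71 ± 0.09 on the log2 scale in Snf5-/- (1.63-fold, adjusted p = 2.98e-04) and by 0.75 ± 0.09 in Brg1-/- (1.68-fold, adjusted p = 7.84e-05). Both calls passed in every setting tried.

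Aldoa, the muscle aldolase that many other cells also use, had 8157, 8210 and 7853 in wild type against 6878, 7300 and 5371 in Snf5-/- and 5659, 5939, 5540 and 5377 in Brg1-/-. All mutant arrays lay below wild type. The fall in Brg1-/- was 0.52 ± 0.10 (1.44-fold, adjusted p = 0.00206) and passed in every setting. The change in Snf5-/- was -0.32 ± 0.10 (1.25-fold lower, adjusted p = 0.0486), and this call was lost when any single array other than Snf5-/- replicate 2 was left out (adjusted p from 0.0172 to 0.129) and in 6 of 10 other settings. A pair of other Aldoa probe sets fell in both mutants when tested by themselves, and the dimmest gave 0.01 in Snf5-/- and -0.07 in Brg1-/-. The summed intensity of 6 skeletal muscle markers, of which 2 were above background in every array, ran from 5082 to 6092 in wild type, from 802 to 1926 in Snf5-/- and from 666 to 961 in Brg1-/-. Acta1 was the brightest of these markers in every array. On the deposited scale it ran from 4794 to 8808 in wild type, 440 to 1135 in Snf5-/- and 263 to 346 in Brg1-/-. Des and Myod1 were also highest in wild type, while Ckm, Myog and Tnnt3 each overlapped wild type in a mutant. The part of these markers in the fall of Aldoa was not tested.

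Pkm, pyruvate kinase, had 11280, 11870 and 11970 in wild type against 11970, 12180 and 9417 in Snf5-/- and 12280, 12920, 12920 and 11930 in Brg1-/-. The groups overlapped, with changes of -0.07 ± 0.09 and 0.10 ± 0.09 (adjusted p = 0.626 and 0.451), and Pkm was lower in Brg1-/- on the deposited scale (-0.37, adjusted p = 0.0118). Tpi1, which interconverts the triose phosphates, gave -0.25 and -0.05 and did not pass; its deposited changes did (-0.65, adjusted p = 0.0184, and -0.71, adjusted p = 0.0027). The brightest probe set of Pgk1, the first ATP-forming step, gave -0.25 ± 0.15 in Snf5-/- and -0.28 ± 0.14 in Brg1-/- and did not pass, and on the deposited scale it gave -0.42 (adjusted p = 0.031) and -0.60 (adjusted p = 7.88e-04). Another Pgk1 probe set, tested by itself, fell in both mutants: its intensity was 9617, 10620 and 10240 in wild type against 7343, 7165 and 6721 in Snf5-/- and 8178, 8107, 8535 and 7146 in Brg1-/-. Its arrays did not overlap wild type, and its changes were -0.52 (adjusted p = 0.00147) and -0.35 (adjusted p = 0.00625).

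Gapdh, Gpi1 and Eno1 had no probe set of their own to test. The control probe sets for Gapdh were not counted as members and differed in brightness. On the deposited scale the brightest ran from 25021 to 25922 in wild type, 19655 to 22801 in Snf5-/- and 21172 to 22263 in Brg1-/-. The next ran from 22572 to 23878, 19346 to 20747 and 18385 to 21037, and the dimmest from 19222 to 20372, 16990 to 18603 and 17054 to 18430. Each lay wholly above both mutants in wild type, on a scale where the wild type arrays were brighter as a whole. Both probe sets of Aldoc, the brain aldolase, failed the filter on dim values, and 1 of them was at background in all 10 arrays.

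**Figure D3:**
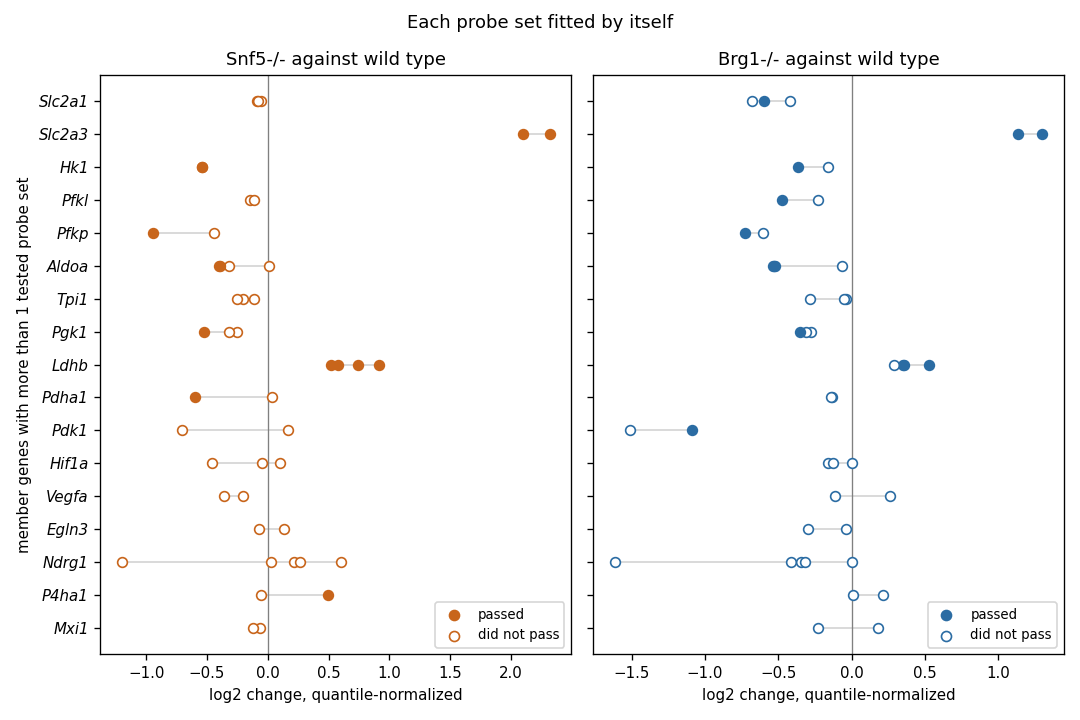
Change of each tested probe set of the 17 members that had more than 1 (45 probe sets), fitted one by one, in Snf5-/- (left) and Brg1-/- (right). Filled circles passed the threshold over 13369 probe sets. In Snf5-/- the probe sets of Pfkp, Aldoa, Pgk1, Pdha1 and P4ha1 divided between passing and not passing.

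At the branch between lactate and the mitochondrion, Ldha and Ldhb differed. Ldha, which favours lactate formation, had 9650, 11010 and 10970 in wild type against 9724, 10000 and 9154 in Snf5-/- and 9923, 11150, 11200 and 9759 in Brg1-/-. The groups overlapped, and its changes were -0.13 ± 0.08 in Snf5-/- (adjusted p = 0.311) and -0.00 ± 0.08 in Brg1-/- (adjusted p = 0.968). Without normalization Ldha passed as lower in both mutants (-0.41, adjusted p = 0.0239, and -0.53, adjusted p = 0.00119), and its mutant arrays all lay below wild type. The Ldha window printed above, the first of 2, held more core matches than the windows of Pgam1, Pfkp or Slc2a1. These matches count both strands of CACGTG, and their part in the RNA values was not tested.

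Ldhb, the form common in oxidative tissue, had 1315, 1239 and 1098 in wild type against 1777, 1595 and 1865 in Snf5-/- and 1655, 1521, 2192 and 1698 in Brg1-/-. All mutant arrays lay above wild type. Ldhb rose by 0.52 ± 0.14 in Snf5-/- (1.43-fold, adjusted p = 0.0196) and by 0.53 ± 0.13 in Brg1-/- (1.44-fold, adjusted p = 0.00865). When tested by themselves, all 4 of its probe sets rose in Snf5-/- and 2 of the 4 in Brg1-/-. Without normalization the change was 0.20 in Snf5-/- and -0.03 in Brg1-/- (adjusted p = 0.54 and 0.913), and both calls were also lost with each array centred on its median. The Snf5-/- call was also lost without wild type replicate 2 or 3 or Snf5-/- replicate 1 or 3 (adjusted p up to 0.0878). A dimmer Ldhb probe set, tested by itself, gave 0.92 in Snf5-/- and 0.29 in Brg1-/-. It was lower in Brg1-/- than in Snf5-/- (-0.63, adjusted p = 0.0237, and -0.84, adjusted p = 0.0382, on the deposited scale).

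Pdk1, the kinase that switches off pyruvate dehydrogenase, had 162.3, 200.2 and 173.3 in wild type against 243.9, 149.4 and 216.6 in Snf5-/- and 17.9, 32.7, 152.6 and 168.6 in Brg1-/-. Brg1-/- replicates 1 and 2 were at the background level and replicates 3 and 4 lay near wild type. The change in Brg1-/- was -1.51 ± 0.65 (adjusted p = 0.106) and did not pass, against -1.95 (adjusted p = 0.0132) on the deposited scale. A dimmer Pdk1 probe set passed in Brg1-/- (-1.09, adjusted p = 0.0383), with 153.2, 141.6 and 145.7 in wild type against 41.7, 128.8, 65.8 and 64.3. Pdha1, the subunit that Pdk1 phosphorylates, did not pass by its brightest probe set (0.04 in Snf5-/- and -0.14 in Brg1-/-, with -0.75 and adjusted p = 0.00165 in Brg1-/- on the deposited scale), and another gave -0.60 in Snf5-/- (adjusted p = 0.0193).

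Hif1a, the oxygen-regulated subunit of HIF-1, is controlled mainly by protein stability, which arrays do not measure. Its RNA had an intensity of 2466, 2580 and 2380 in wild type against 2162, 2807 and 2275 in Snf5-/- and 2077, 2504, 2347 and 2167 in Brg1-/-. The groups overlapped, with changes of -0.04 ± 0.11 (adjusted p = 0.826) and -0.13 ± 0.10 (adjusted p = 0.411). None of its 3 tested probe sets passed on this scale. On the deposited scale its change in Brg1-/- was -0.73 (adjusted p = 0.00225), against a median of -0.47 over all tested genes.

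Vegfa, the signal for blood vessel growth, had 298.8, 274.8 and 265.2 in wild type against 198.7, 385.4 and 185.8 in Snf5-/- and 263.4, 261.4, 216.8 and 298.4 in Brg1-/-. Snf5-/- replicate 2 was above all wild type arrays and the other Snf5-/- arrays below them, and the change was -0.20 ± 0.24 in Snf5-/- (adjusted p = 0.609) and -0.11 ± 0.23 in Brg1-/- (adjusted p = 0.75). Egln3, a HIF prolyl hydroxylase that HIF itself induces, showed the same high array, with 257.9, 506.4 and 178.9 in Snf5-/- against 314.7, 242.1 and 231.7 in wild type. Snf5-/- replicate 2 also had the highest sum of 12 macrophage and leukocyte markers, 11440, where the other 9 arrays lay between 2406 and 6008. The part of these markers in the values of replicate 2 was not tested. Without that array 10 members passed in Snf5-/-, 3 higher and 7 lower, against 7 with it. Of all 8402 tested genes, 923 were then higher and 647 lower, against 892 and 628 with it.

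**Figure D4:**
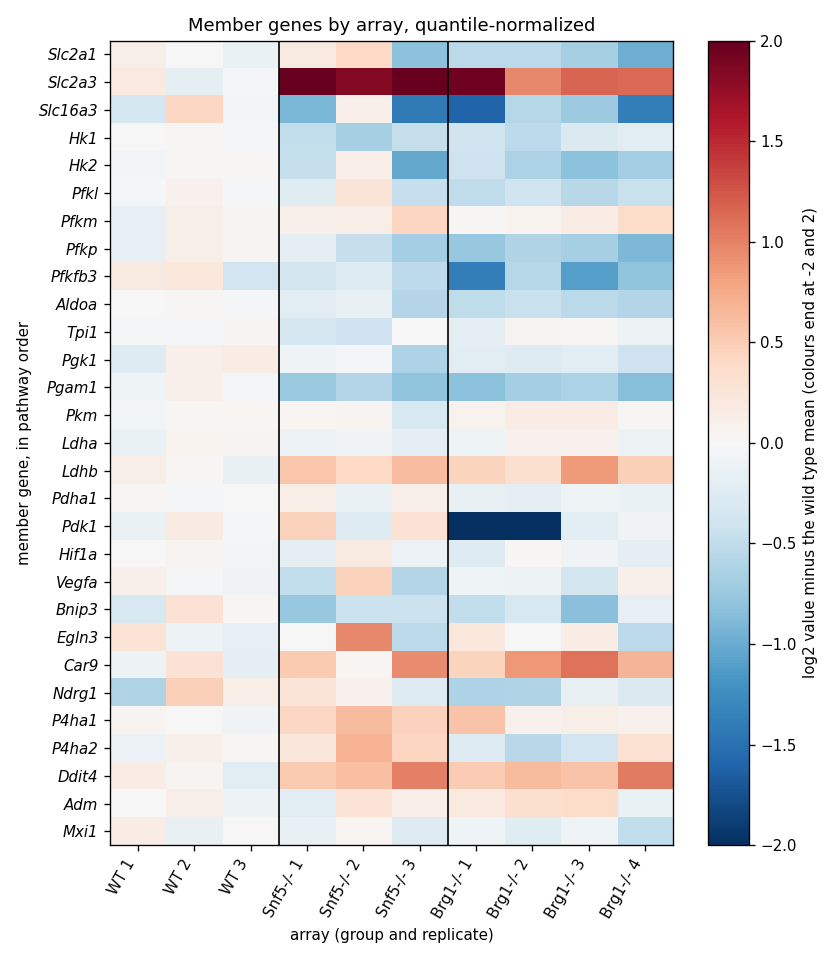
Quantile-normalized log2 value of each tested member in each of the 10 arrays minus its mean in wild type; colours end at -2 and 2. Snf5-/- replicate 2 is high and replicate 3 low for Slc2a1, Hk2, Slc16a3, Vegfa and Egln3, and Pdk1 is lowest in Brg1-/- replicates 1 and 2.

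Of the 10 other tested hypoxia-induced members, Ddit4 and P4ha1 rose in Snf5-/- and Ddit4 alone in Brg1-/- after quantile normalization. Over all tested genes 10.6% passed as higher in Snf5-/- and 14.9% in Brg1-/-. Ddit4 (REDD1), a stress-induced inhibitor of mTORC1, had 1291, 1206 and 1003 in wild type against 1671, 1757 and 2327 in Snf5-/- and 1649, 1801, 1722 and 2381 in Brg1-/-. All mutant arrays lay above wild type. Ddit4 rose by 0.71 ± 0.16 in Snf5-/- (1.64-fold, adjusted p = 0.0111) and by 0.69 ± 0.15 in Brg1-/- (1.61-fold, adjusted p = 0.00597). Neither change passed on the deposited scale (0.38 and 0.12, adjusted p = 0.255 and 0.662), and the Snf5-/- rise missed the threshold when wild type replicate 3 was left out (adjusted p = 0.0548).

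P4ha1, a catalytic subunit of collagen prolyl hydroxylase, had 1385, 1331 and 1268 in wild type against 1767, 2056 and 1817 in Snf5-/- and 1964, 1408, 1439 and 1404 in Brg1-/-. The mutant arrays all lay above wild type, those of Brg1-/- by little except replicate 1. P4ha1 rose by 0.50 ± 0.13 in Snf5-/- (1.41-fold, adjusted p = 0.0217) and gave 0.21 ± 0.12 in Brg1-/- (adjusted p = 0.228). The rise was not called on the deposited scale (0.18, adjusted p = 0.545), with arrays centred on their medians or with the mean of both probe sets, the other probe set gave -0.06, and the call was lost without wild type replicate 2 or 3 or Snf5-/- replicate 2 (adjusted p up to 0.0824).

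The other hypoxia-induced members did not pass in either mutant after quantile normalization. Bnip3, which acts in mitophagy, gave -0.54 ± 0.19 in Snf5-/- and -0.45 ± 0.18 in Brg1-/- (adjusted p = 0.0707 and 0.079), and on the deposited scale -0.85 and -0.94 (adjusted p = 0.00818 and 8.63e-04). P4ha2 gave 0.45 and -0.22, and in Brg1-/- it passed as lower on the deposited scale (-0.75, adjusted p = 0.00713). Car9, a cell-surface carbonic anhydrase, gave 0.50 and 0.77 from intensities of 58.0 to 139.5. Ndrg1, Adm and Mxi1 lay between -0.41 and 0.18 in both mutants, while Ndrg1 (-0.82, adjusted p = 0.00661) and Mxi1 (-0.65, adjusted p = 0.013) were lower in Brg1-/- on the deposited scale. Ankrd37 had no probe set.

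Set directly against each other, the mutants differed in 1 of the 29 tested members, where 2.15% of all tested genes were higher in Brg1-/- and 2.30% lower. Slc2a3 was lower in Brg1-/- than in Snf5-/- (-1.02 ± 0.24, 2.02-fold lower, adjusted p = 0.0338), although Brg1-/- replicate 1 overlapped the Snf5-/- arrays. This call was lost in 6 of 10 fits that left out an array, namely without wild type replicate 3, Snf5-/- replicate 1 or 3, or Brg1-/- replicate 2, 3 or 4 (adjusted p from 0.01 to 0.11), and also without the trend and with only the mutants fitted. Slc2a3 (-1.23, adjusted p = 0.0108) and P4ha2 (-0.89, adjusted p = 0.0205) were lower in Brg1-/- on the deposited scale, with a background of 3.93% lower and 0.369% higher. For the genes that fell in Brg1-/- without a call in Snf5-/-, the direct differences were -0.60 for Slc2a1, -0.33 for Slc16a3, -0.18 for Hk2, -0.33 for Pfkl, -0.29 for Pfkp and -0.58 for Pfkfb3. None of these passed (adjusted p from 0.163 to 0.662), so a difference between the mutants was not shown for them. Among probe sets tested by themselves, the dimmer Ldhb probe set given above was also lower in Brg1-/- than in Snf5-/-.

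Neighbouring pathways were counted by list, to be read against the 10.6% of all tested genes that rose and 7.47% that fell in Snf5-/-, and the 14.9% and 12.8% in Brg1-/-. Of 18 other tested glycolysis, pyruvate and lactate genes, 2 rose and 2 fell in Snf5-/- and 2 rose and 3 fell in Brg1-/-. Eno3, the muscle enolase, had 1347, 1187 and 1017 in wild type against 427.7, 428.6 and 346.7 in Snf5-/- and 166.2, 183.3, 175.3 and 193.4 in Brg1-/-. Its groups did not overlap, with changes of -1.56 and -2.71 (adjusted p = 3.22e-05 and 6.16e-07). The sum of muscle markers given beside Aldoa, led by Acta1, was also highest in wild type. The part of these markers in the change of Eno3 was not tested. Dlat, a pyruvate dehydrogenase subunit, fell by 0.77 and 0.70, and the pyruvate dehydrogenase kinase Pdk4 fell by 0.92 in Brg1-/-.

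Of 12 tested genes of glycogen and the pentose phosphate pathway, 3 passed in each mutant, all of them lower (background 7.47% in Snf5-/- and 12.8% in Brg1-/-). Tkt, transketolase, had 4216, 3702 and 3674 in wild type against 2395, 2576 and 1845 in Snf5-/- and 1926, 2466, 2298 and 1817 in Brg1-/-. All mutant arrays lay below wild type, with changes of -0.78 and -0.87 (adjusted p = 0.0033 and 6.65e-04). Ugp2, which makes UDP-glucose, fell by 0.50 and 0.33. Gys1 (glycogen synthase) fell by 0.62 in Snf5-/- and Pgd by 0.57 in Brg1-/-.

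Of 41 other tested HIF pathway and hypoxia-induced genes, 5 rose and 4 fell in Snf5-/- and 8 rose and 5 fell in Brg1-/-, beside the shares of all tested genes given for the lists above. Gys1, named above, is also counted here. Igfbp3, an IGF-binding protein, rose from 277.6, 233.7 and 268.4 in wild type to 841, 1060 and 1424 in Snf5-/- and 1033, 1102, 1170 and 1388 in Brg1-/-. Its changes were 2.06 and 2.17 (adjusted p = 2.65e-05 and 5.02e-06). Errfi1 rose by 0.75 in Snf5-/- and 1.14 in Brg1-/-, and Car12 by 1.07 and 1.15. On the deposited scale these 2 genes passed in Brg1-/- only. Wsb1 fell by 0.52 in Brg1-/- and did not pass in Snf5-/- (-0.25, adjusted p = 0.149). Cited2, which competes with HIF-1 for its coactivator, fell by 0.76 in Snf5-/- and 0.54 in Brg1-/-, and Vldlr by 0.79 and 0.93.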

How the data were processed

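Expression was measured on 10 Affymetrix arrays (3 wild type, 3 Snf5-/-, 4 Brg1-/-). The authors deposited MAS5 intensity values for 22690 probe sets, MAS5 being named in the submitters' processing notes; for its version, scaling target and filters the sources used here give nothing. These values were log2-transformed with no offset and quantile-normalized (limma 3.58.1, R 4.3.3). Of the probe sets, 20380 carried 1 symbol, 691 several and 1555 were not listed, beside 64 controls. A probe set was kept if at or above the 40th percentile of its array in at least 3 arrays, and the one with the highest mean stood for its gene. Promoter windows are RefSeq's, on GRCm38.p6.

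A model with 3 group means (7 residual degrees of freedom), eBayes with an intensity trend and two-sided tests gave 3 comparisons, adjusted by Benjamini-Hochberg at 0.05. The script was tested on simulated data. Members, gene lists, markers and tests were chosen with earlier results of these data known. Values in every array are given for members past the threshold and for Hif1a, Vegfa, Slc2a1, Hk2, Ldha, Pdk1 and Pkm; other lists name up to 4 genes with the smallest adjusted p among those past the threshold on both scales. The background of an array is its brightest Bacillus subtilis control (27 probe sets), 26.7 to 57.4 on the deposited scale. Above it in every array were 12 of 12 fibroblast, 10 of 12 leukocyte, 3 of 6 epithelial, 1 of 6 endothelial, 2 of 6 skeletal muscle and 0 of 4 erythroid markers; Epcam, Alas2 and Epb42 were at background throughout. Arrays carry no counting depth; their number limits the precision. Alternatives covered scaling, filter, probe set, offset, trend, samples in the fit, replicate block and leaving out each array.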

Additional observations from a re-analysis of the deposited data

Results flagged for a closer look

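The intensity of Slc2a1 in Brg1-/- replicate 4 stood apart from the other Brg1-/- arrays on the deposited scale. It was 520.2, against 639.4, 640.6 and 660.8. Of the 29 tested members this was the 1 with such a sample, and chance alone marks about 1 in 20 groups.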

How the results depend on the processing

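On the deposited scale 11 members passed in Snf5-/-, 21 in Brg1-/- and 2 between the mutants, against 7, 12 and 1 after quantile normalization, and 3990 of all tested genes in Brg1-/- against 2331. Among member changes past the threshold, the 1 whose sign reversed was that of Ldhb in Brg1-/- (-0.031 on the deposited scale); the cause was not tested. Between the mutants, 2 members passed with arrays centred on their medians, 0 without the trend and 0 with only these groups fitted (limma; 5 and 6 at an unadjusted p under 0.05); of all tested genes 192 and 147 passed in the last 2 settings, against 374. Leaving out each array gave 3 to 10 members in Snf5-/-, 6 to 13 in Brg1-/- and 0 to 2 between the mutants, and 920 to 1659, 1649 to 2515 and 121 to 494 of all tested genes. The same on the deposited scale, added after the data were seen, gave 6 to 13, 19 to 22 and 1 to 6 members, and 920 to 1815, 2765 to 4167 and 128 to 756 of all tested genes. Apart from the replicate block between the mutants, the remaining settings left the member counts within 1.5 times. Samples share replicate numbers across groups, but of 9 same-number pairs 1 had a correlation of deviations over 0.1 (range -0.07 to 0.11), so the numbers were not taken to pair them; with the replicate block 8, 12 and 2 members passed, and Slc2a1 and Hk2 in Brg1-/- did not. The number of arrays limits precision, and Pdk1 in Brg1-/- is limited by signal near background.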
